A study of Mus musculus with 6 samples.

Results

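The genes described here encode the pore-forming and auxiliary subunits of voltage-gated sodium and calcium channels, together with the sodium leak channel Nalcn and 3 intracellular fibroblast growth factor homologues that bind sodium channels. They were taken by exact symbol from a named list of 32 genes, all of which were found, in 33 of the 23016 gene entries of the deposited table, since Scn8a held 2 entries. Cerebral cortex was collected at postnatal day 0 from pups of Fezf2+/- intercrosses, 3 wild type and 3 Fezf2 KO (Fezf2-/-), and each library was made from total RNA and sequenced on an Illumina Genome Analyzer II. Wild type 1 and 2 and Fezf2 KO 1 and 2 carry the label of litter m1, and wild type 3 and Fezf2 KO 3 that of litter m2. No other allele and no treatment is given in the labels. The knockout is of the whole animal, and the tissue is whole cortex with all its cell types, so fewer cells of a type and less RNA per cell cannot be told apart in any value below.

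Voltage-gated sodium channels open on depolarisation and carry the rising phase of the action potential. Each has 1 large alpha subunit that forms the pore, beta subunits that alter its gating and its place on the membrane, and cytoplasmic fibroblast growth factor homologues that bind its tail. Calcium channels of the Cav1 and Cav2 families have a pore-forming alpha1 subunit, a cytoplasmic beta subunit and an extracellular alpha2delta subunit, and admit calcium for gene regulation and transmitter release. Cav3 channels open at lower voltages and work with the alpha1 subunit alone. Fezf2, the gene knocked out here, codes for a transcriptional regulator needed by projection neurons of the deep cortical layers. The comparison asks which channel genes differ in level in the newborn cortex of the knockout.

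The libraries held 44978380 to 52872577 recovered reads, and each entry of the channel genes had 120 to 20611 reads in every library. Values below are the deposited ones, which are read counts divided by 1 size factor per library, so that 1 read was worth 0.812 to 0.936. They can be compared between libraries for a gene, but between genes only after division by transcript length. Fezf2 itself had values of 5030.3, 5928 and 5396 in the wild type and 1989, 1377 and 1533 in the Fezf2 KO libraries, a log2 difference of -1.75 (limma adjusted p = 0.000832). The Fezf2 KO mean was thus 0.30 of the wild type mean. Values per gene entry do not show which part of the transcript the remaining reads came from. Some marker lists moved with genotype or with 1 library. The summed values of 15 striatal genes were 20357 to 25093 in wild type and 11210, 18554 and 12537 in the knockout libraries 1, 2 and 3. Of these, 14 entries were tested and 13 had lower means in Fezf2 KO, with 1 past the limma threshold, Ppp1r1b, which deep-layer cortical neurons also express. The summed values of 8 choroid plexus genes reached 10341 in Fezf2 KO 1 against 445 to 717 in the other 5 libraries. Those of 8 meningeal genes reached 6126 in wild type 1 against 711 to 1169 in the other 5. None of the choroid plexus genes was at 0 in any library, whereas Ido1 of the striatal and Slc22a6 of the meningeal list were at 0 in at least 1. Cortical excitatory neuron genes summed to 124932 to 133546 in wild type and 133747 to 153252 in Fezf2 KO, and interneuron genes to 55690 to 58568 and 63671 to 67937. Of 8 excitatory entries tested, 8 had higher estimates in Fezf2 KO and 0 passed the limma threshold. Of 14 interneuron entries tested, 11 were higher and 3 lower, and 2 passed it, against 0.712% of all entries. The part of these differences in the results below was not tested. Values with the striatal genes as a covariate are given for some entries. Since every Fezf2 KO library had a lower striatal sum than every wild type library, that fit cannot fully tell striatal level from genotype.

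All 33 entries passed the filter on low values, and 0 of them passed the threshold of a limma adjusted p of 0.05, against 0.712% of the 17557 entries tested. The counts by edgeR and DESeq2 were also 0, against 0.689% and 2.30% of all entries, and the smallest adjusted p among the channel genes was 0.384 with limma, 0.377 with edgeR and 0.267 with DESeq2. At an unadjusted limma p under 0.05 there were 5 entries (15.2%), 2 higher (Cacna1i and Cacna2d1) and 3 lower (Scn2a1, Cacna2d3 and Cacnb3) in Fezf2 KO, against 9.03% of all entries. The log2 differences (Fezf2 KO minus wild type, on the log2(value + 1) scale throughout) ran from -0.39 to 0.18 with a median of -0.02, against 0.00 over all entries tested. Point estimates were above 0 for 14 entries and below 0 for 19, and the sign was the same in litter m1 and litter m2 for 18 of 33 (54.5%, against 57.1% of all). The split above and below 0 depended on the fit: with the mean of the striatal list as a covariate, which itself differed between the genotypes, 15 of the 19 negative estimates turned positive, giving 29 above 0 and 4 below with a median of 0.13, against a median of 0.00 over all entries. The sign changed in this fit for 45.5% of the channel entries and 30.3% of all entries. Without Fezf2 KO 1 the split was 21 above 0 and 12 below. In the main fit the size of the difference was bounded for most entries, by intervals not adjusted for their number. These intervals do not take in the shifts between fits. The 95% interval lay inside a 1.5-fold change either way for 27 of 33 entries (81.8%, against 74.4% of all). It lay inside a 1.2-fold change for 14, against 6625 of the 17557 entries tested. The 6 entries whose interval reached past 1.5-fold were Scn1a, Scn9a, Nalcn, Cacna1e, Cacna2d3 and Cacnb2, all with negative point estimates.

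**Figure D1:**
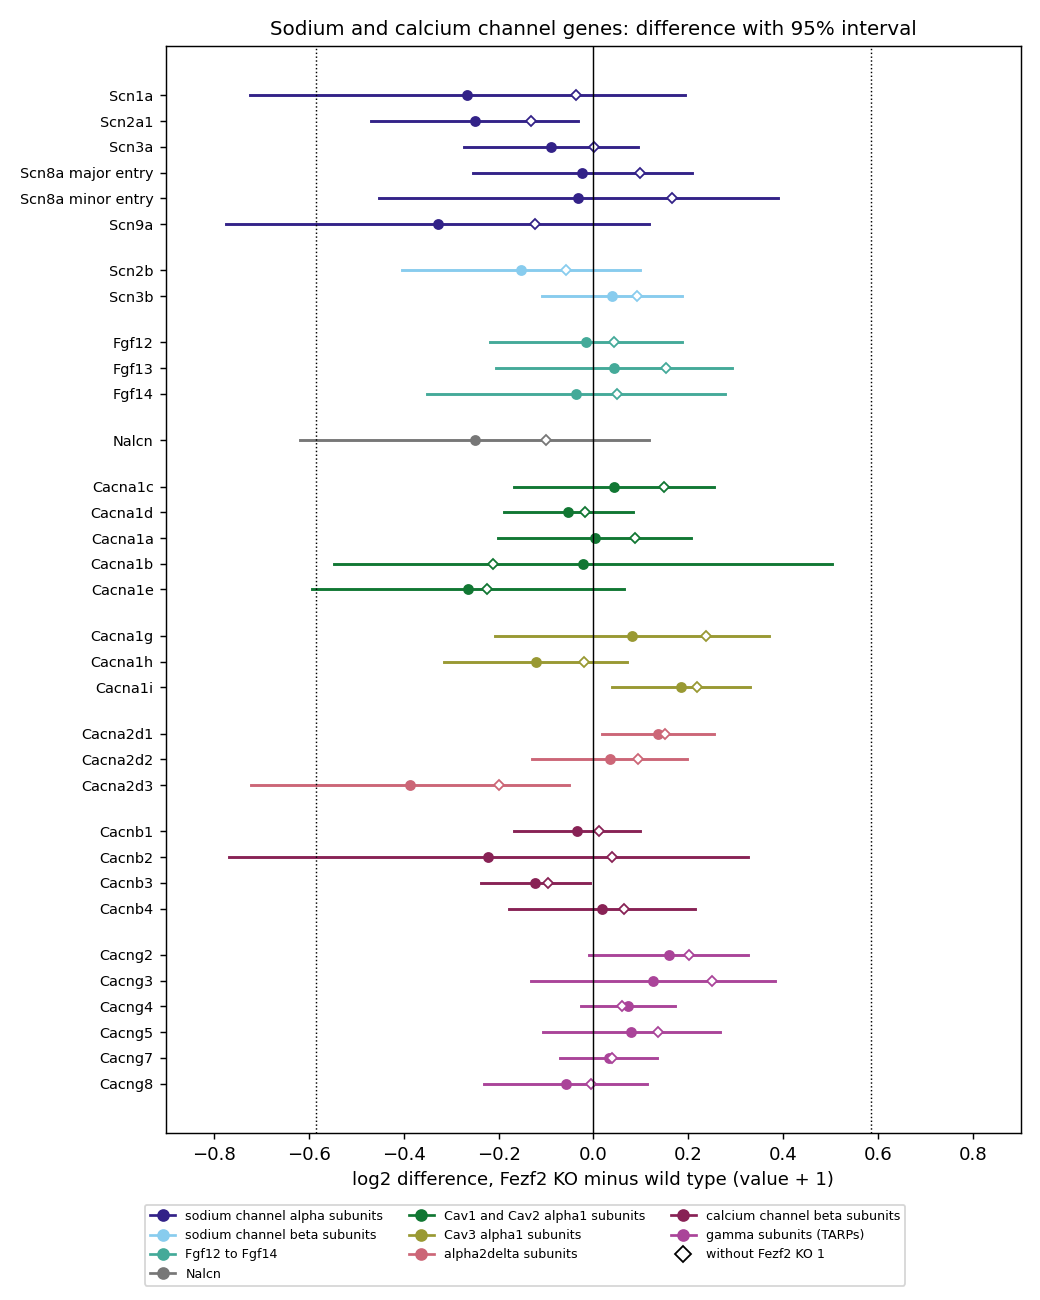
Log2 difference (Fezf2 KO minus wild type) of each of the 33 channel gene entries, ordered by role, with its 95% interval from limma (n = 3 libraries per genotype). Open diamonds give the difference without Fezf2 KO 1, and dotted lines mark 1.5-fold. The estimates lie between -0.39 and 0.18, and 27 of 33 intervals stay inside the dotted lines.

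Of the Fezf2 KO libraries, 1 stood apart in these genes. Fezf2 KO 1 was the lowest of the 6 libraries in 24 of 33 entries (72.7%), against 23.2% of all entries tested. The next most frequent lowest library, wild type 1, was lowest in 4. The median log2 difference of the channel entries from the wild type mean was -0.17 in the first, 0.06 in the second and 0.02 in the third Fezf2 KO library, whereas over all entries it was 0.01, 0.00 and 0.00. The lowest values relative to wild type in Fezf2 KO 1 were those of Cacna2d3 (-0.76), Cacnb2 (-0.74), Scn9a (-0.74) and Scn1a (-0.73). Fezf2 KO 1 was lowest in all 6 sodium channel alpha entries, both beta subunits and the 3 Fgf genes. Among the gamma subunits it was lowest in 2 of 6. It is also the library with the lowest striatal sum and with the high choroid plexus sum, and their part in its channel values was not tested. Without it, 0 entries passed the adjusted threshold (smallest limma adjusted p 0.325), the median difference was 0.04, and 8 entries (24.2%, against 8.42% of all) had an unadjusted p under 0.05, 6 of them higher (Cacna1c, Cacna1g, Cacna1i, Cacna2d1, Cacng2 and Cacng3) and 2 lower (Scn2a1 and Cacna2d3). Fezf2 KO 1 was singled out by its low values in these same entries, so a shift upward without it is partly built in. These counts are therefore a description only.

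**Figure D2:**
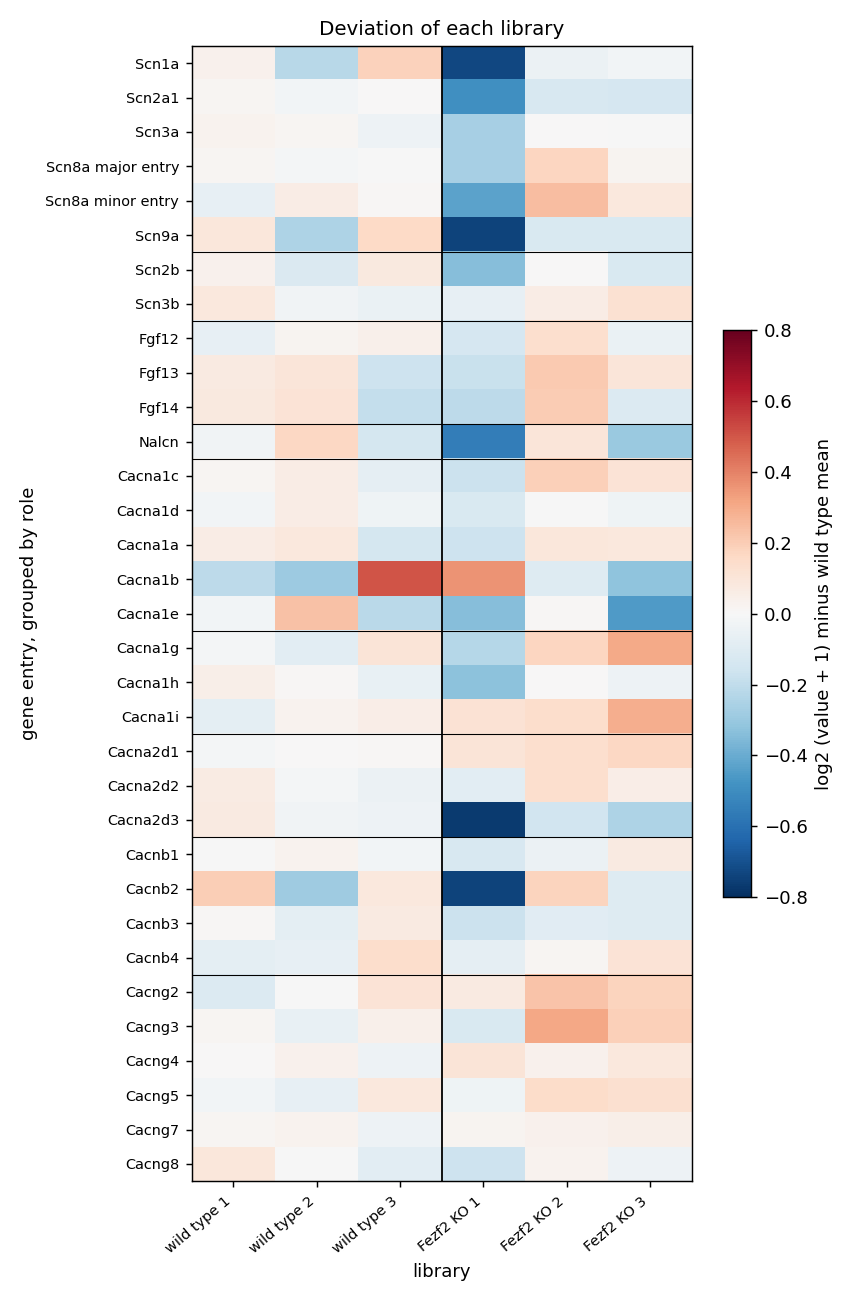
Log2(value + 1) of each channel gene entry (rows, by role) in each of the 6 libraries (columns) minus the wild type mean. The column of Fezf2 KO 1 is the lowest of the 6 in 24 of 33 rows, while the columns of Fezf2 KO 2 and 3 have medians of 0.06 and 0.02.

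Of the sodium channel alpha subunits, Scn2a1 (the gene now called Scn2a, for Nav1.2, the alpha subunit of young excitatory axons) was separated by genotype in these 6 libraries. Its values were 3685, 3592 and 3660.0 in the wild type and 2597, 3342 and 3315 in the Fezf2 KO libraries. Every Fezf2 KO value was below every wild type value, with Fezf2 KO 1 the lowest. The means were 3645 ± 48.3 against 3085 ± 422 (mean ± SD, n = 3 each), a log2 difference of -0.25 (SE 0.0951), 95% interval -0.47 to -0.03, unadjusted p = 0.0295 and limma adjusted p = 0.465. Without Fezf2 KO 1 the difference was -0.13, and after adjusting for the mean striatal level as a covariate it was -0.03.

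Scn8a, for Nav1.6, the alpha subunit of the mature axon initial segment, had values of 3671, 3595 and 3627 in the wild type and 3021, 4089.7 and 3692 in the Fezf2 KO libraries. The genotypes overlapped, with Fezf2 KO 1 the lowest and Fezf2 KO 2 the highest of the 6 libraries, and the difference was -0.02. The second, minor entry of Scn8a gave 125 to 137 in wild type and 97.4 to 156 in Fezf2 KO, a difference of -0.03. With the striatal covariate these differences were 0.25 and 0.36. Scn9a, for Nav1.7, best known from peripheral sensory neurons, had values of 257, 203 and 271 in the wild type and 145, 222 and 223 in the Fezf2 KO libraries. Fezf2 KO 2 and 3 fell inside the wild type range and Fezf2 KO 1 below it, so that the difference of -0.33 (limma adjusted p = 0.719) was -0.12 without that library.

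Scn1a, for Nav1.1, the main alpha subunit of fast-spiking interneurons, ranged over 301 to 399 in wild type and 212 to 345 in Fezf2 KO, with a difference of -0.27 that was -0.04 without Fezf2 KO 1. Scn3a, for Nav1.3, the alpha subunit typical of the embryonic brain, ranged over 2546 to 2673 in wild type and 2180.1 to 2627 in Fezf2 KO, with differences of -0.09 and, without Fezf2 KO 1, 0.00. All 6 alpha entries had negative point estimates, with a median of -0.17. This shared direction was kept in the alternative fits except without Fezf2 KO 1 and with the striatal covariate. Between the litters it was not shared: the sign in litter m2 (1 library per genotype) was that of litter m1 for 3 of the 6. Without Fezf2 KO 1 the median was -0.02, with 3 estimates above 0. With the striatal covariate it was 0.10, and 5 of the 6 were above 0, Scn2a1 being the exception. Scn3a lies next to Scn2a in RefSeq's gene order, with 0 protein-coding genes between them. The log2 ratio of Scn3a to Scn2a1 values, which no size factor can move, in libraries 1, 2 and 3 came to -0.46, -0.44 and -0.52 for wild type and to -0.25, -0.35 and -0.34 for Fezf2 KO. The Fezf2 KO ratios were all above the wild type ones (means -0.31 ± 0.05 and -0.47 ± 0.04, SD, n = 3 each), which is given as a description with no test, since the pair was formed after the values were seen. The alpha subunits have similar coding sequences, and the sources used here do not say how reads that fit several genes were counted.

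The sodium channel beta subunits, cell-adhesion proteins that modulate the alpha subunits, showed no separation. Scn3b, with the higher deposited values, had values of 4927, 4545 and 4473 in the wild type and 4443, 4833 and 5062 in the Fezf2 KO libraries, with overlapping genotypes and a difference of 0.04. Scn2b, which is joined to the alpha subunit by a disulphide bond, had values of 577, 520.1 and 593 in the wild type and 444, 565 and 517 in the Fezf2 KO libraries. Fezf2 KO 1 was the lowest, wild type 2 and Fezf2 KO 3 nearly matched, and the difference was -0.15 (limma adjusted p = 0.784).

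Among the fibroblast growth factor homologues, Fgf13, which also binds microtubules in growing neurons, had values of 4199, 4272 and 3567 in the wild type and 3536, 4624 and 4280.3 in the Fezf2 KO libraries. The litter m2 wild type and Fezf2 KO 1 were both low, the genotypes overlapped, and the difference was 0.04 (95% interval -0.21 to 0.29). With the striatal covariate it was 0.32. Fgf12 ranged over 793 to 852 in wild type and 753 to 911 in Fezf2 KO, and Fgf14 over 313 to 386 in wild type and 309 to 411 in Fezf2 KO, with differences of -0.02 and -0.04. Nalcn, the voltage-insensitive leak channel that sets resting excitability, had values of 789.7, 902 and 729.6 in the wild type and 548, 860.3 and 654 in the Fezf2 KO libraries. Fezf2 KO 1 and 3 were the lowest of the 6 libraries and Fezf2 KO 2 lay within the wild type range, with a difference of -0.25 (limma adjusted p = 0.750). It was -0.10 without Fezf2 KO 1, -0.42 without Fezf2 KO 2 and 0.17, the opposite sign, with the striatal covariate.

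Of the high-voltage-activated calcium channel alpha1 subunits, Cacna1b (Cav2.2, the N-type channel of presynaptic terminals) had the widest spread within a genotype. Its values were 6539, 6167 and 10683 in the wild type and 9695, 7044 and 6032 in the Fezf2 KO libraries. The litter m2 wild type and the first litter m1 knockout stood apart above the other 4 libraries, and the genotypes overlapped. The means were 7796 ± 2507 against 7591 ± 1892 (mean ± SD, n = 3 each), a log2 difference of -0.02 with a 95% interval of -0.55 to 0.50. In litter m1 alone the Fezf2 KO value was higher by 0.38, and in litter m2 lower (-0.82, 1 library each). With 1 library per genotype in litter m2, this contrast between litters was not tested. The adjacent gene Ehmt1, a histone methyltransferase with 0 protein-coding genes between it and Cacna1b in RefSeq's gene order, had values of 7637, 7291 and 9051 in the wild type and 8769.8, 7286 and 7611 in the Fezf2 KO libraries, its 2 highest being in the same libraries. Ehmt1 is on none of the gene lists, and it stood out less in those libraries than Cacna1b. A link between the genes was not tested.

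Cacna1e (Cav2.3, the R-type channel) had values of 1856, 2221 and 1624 in the wild type and 1487, 1893 and 1374 in the Fezf2 KO libraries. In each litter the Fezf2 KO values were below the highest wild type one, but the genotypes overlapped, with a difference of -0.26 (SE 0.143) and a limma adjusted p of 0.680. It was -0.0029 with the striatal covariate, and with 1 library left out it ran from -0.40 without Fezf2 KO 2 to -0.15 without wild type 2. Cacna1a (Cav2.1, the P/Q-type channel) ranged over 3766 to 4401 in wild type and 3699 to 4426 in Fezf2 KO, with a difference of 0.00. The L-type subunits were close to 0 as well in the main fit. With the striatal covariate the difference was 0.27 for Cacna1c and 0.02 for Cacna1d, and without Fezf2 KO 1 it was 0.15 and -0.02. Cacna1c (Cav1.2) ranged over 4072 to 4468 in wild type and 3808 to 4893 in Fezf2 KO, with a difference of 0.04, and Cacna1d (Cav1.3) over 2241 to 2398 in wild type and 2113 to 2294 in Fezf2 KO, with a difference of -0.05. A separate antisense-labelled entry at Cacna1a held values of 87.7 to 119, and one at Cacnb2 held 3.49 to 5.39. Since strand is not stated, reads of such a pair cannot be told apart.

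Of the low-voltage-activated Cav3 subunits, Cacna1i (Cav3.3, a slowly inactivating T-type channel) had the smallest p of all 33 entries. Its values were 4041, 4349.8 and 4421 in the wild type and 4632, 4707 and 5231 in the Fezf2 KO libraries. Every Fezf2 KO value exceeded every wild type value, and the highest was in Fezf2 KO 3. The means were 4271 ± 202 against 4856 ± 326 (mean ± SD, n = 3 each), a log2 difference of 0.18 (SE 0.0636), 95% interval 0.04 to 0.33, with an unadjusted p of 0.0195 that came to 0.384 after limma's adjustment over all entries. The difference was 0.22 without Fezf2 KO 1 and 0.16 with the striatal covariate. Cacna1h (Cav3.2), with the highest deposited values of the 3, had values of 9891, 9641 and 9196 in the wild type and 7629.9, 9594 and 9297 in the Fezf2 KO libraries. Fezf2 KO 1 was well below the other 5 libraries, Fezf2 KO 2 and 3 lay inside the wild type range, and the difference was -0.12. Cacna1g (Cav3.1) ranged over 5787 to 6613 in wild type and 5239 to 7588 in Fezf2 KO. Its difference was 0.08 with all libraries and 0.24 without Fezf2 KO 1, where the limma adjusted p was 0.325.

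**Figure D3:**
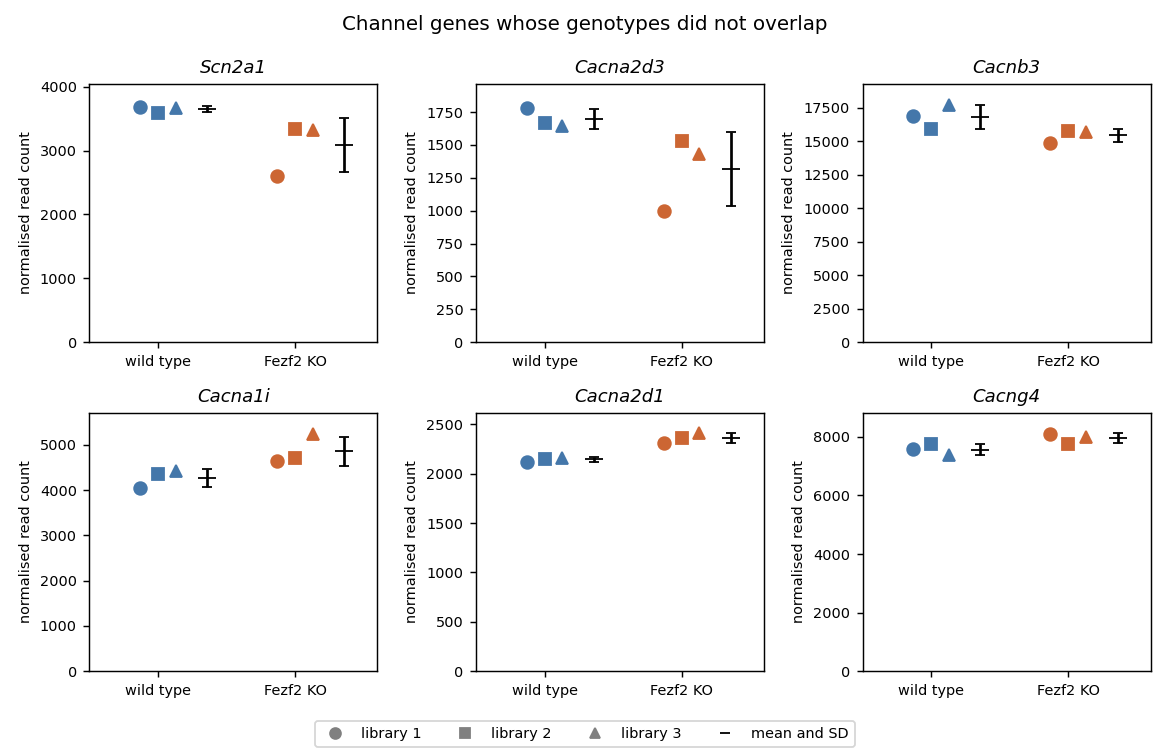
Deposited values (read counts divided by a size factor, linear axis) of the 6 channel genes whose genotypes did not overlap. Circle, square and triangle are libraries 1, 2 and 3 of each genotype, and the line and bar are the mean and SD (n = 3). Scn2a1, Cacna2d3 and Cacnb3 were lower and Cacna1i, Cacna2d1 and Cacng4 higher in Fezf2 KO, with 0 of them past the adjusted threshold.

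Complete separation of the genotypes was seen in 6 of the 33 entries. It was upward for 3 (9.09%, against 7.60% of all entries tested) and downward for 3 (9.09%, against 6.85%), so both shares lay near the background.

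The alpha2delta subunits, extracellular proteins that bring channels to the surface and take part in synapse formation, pointed in both directions. Cacna2d1 had values of 2120.3, 2153 and 2163 in the wild type and 2308, 2356 and 2411 in the Fezf2 KO libraries. The spread within each genotype was narrow and the 2 ranges did not touch, with means of 2145 ± 22.3 against 2358 ± 51.7 (mean ± SD, n = 3 each), a log2 difference of 0.14 (SE 0.0511), unadjusted p = 0.0280 and limma adjusted p = 0.453. The difference was 0.15 without Fezf2 KO 1 and 0.15 with the striatal covariate. Cacna2d3 had values of 1782, 1664 and 1646 in the wild type and 999, 1528 and 1429 in the Fezf2 KO libraries. Fezf2 KO 1 was far below the rest, and Fezf2 KO 2 and 3 were also below every wild type library. This was the most negative estimate of the 33, -0.39 (SE 0.146) with a 95% interval of -0.72 to -0.05, unadjusted p = 0.0285 and limma adjusted p = 0.458. It was -0.20 without Fezf2 KO 1 and 0.00 with the striatal covariate. Cacna2d2 ranged over 2005 to 2171 in wild type and 1954 to 2274 in Fezf2 KO, with a difference of 0.03.

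Cacnb3, a cytoplasmic beta subunit that chaperones alpha1 subunits, had the highest deposited values of all the channel genes, also per length, 16899, 15901 and 17712 in the wild type and 14902, 15809 and 15669 in the Fezf2 KO libraries. All 3 Fezf2 KO values were below the wild type ones, by a narrow margin between Fezf2 KO 2 and wild type 2. The log2 difference was -0.12 (SE 0.0501), unadjusted p = 0.0401, limma adjusted p = 0.508, and its 95% interval of -0.24 to -0.01 placed it within 1.2-fold. It was -0.10 without Fezf2 KO 1 (limma adjusted p = 0.733) and -0.08 with the striatal covariate (limma adjusted p = 0.874). Cacnb1 ranged over 5975 to 6203 in wild type and 5569.9 to 6386 in Fezf2 KO and Cacnb4 over 1025 to 1190.2 in wild type and 1026 to 1167 in Fezf2 KO, with differences of -0.03 and 0.02. Cacnb2 ranged over 159 to 222 in wild type and 115 to 219 in Fezf2 KO, and its difference of -0.22 was 0.04 without Fezf2 KO 1.

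The gamma subunits of this set are best known as TARPs, which traffic AMPA-type glutamate receptors and alter their gating. Of 6 entries, 5 had positive estimates and 1 a negative one, with a median of 0.08, and 6 of 6 intervals lay within 1.5-fold. Cacng2 (stargazin) had values of 2238, 2410.1 and 2609.9 in the wild type and 2539, 2827 and 2729.6 in the Fezf2 KO libraries. Fezf2 KO 2 and 3 were above every wild type library and Fezf2 KO 1 was below wild type 3, with a difference of 0.16 (SE 0.0728) and a limma adjusted p of 0.583. Cacng4, with the highest deposited values of the 6 before division by length, had values of 7575, 7751 and 7368 in the wild type and 8109, 7759 and 8007 in the Fezf2 KO libraries. The Fezf2 KO values were all above the wild type ones, though Fezf2 KO 2 exceeded wild type 2 by less than the spread within either genotype, and the difference was 0.07 (SE 0.0433), with a limma adjusted p of 0.719. Cacng3 ranged over 800.2 to 858 in wild type and 765 to 1032 in Fezf2 KO, with a difference of 0.13. It was 0.25 without Fezf2 KO 1 and 0.39 with the striatal covariate. Cacng5, Cacng7 and Cacng8 had differences of 0.08, 0.03 and -0.06.

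Divided by the length of the longest coding transcript, the wild type levels (mean ± SD per kb, n = 3) can be set in order. Cacnb3 was the highest at 6158 ± 332 per kb, followed by Cacng7 at 2201 ± 56.4 and Cacng4 at 2161 ± 54.8, which did not differ beyond their spread, and then Cacnb1 at 1790.2 ± 33.9 and Fgf13 at 1606 ± 155. Among the sodium channel alpha subunits the order was Scn2a1 at 408 ± 5.40 per kb, Scn8a at 318 ± 3.32, Scn3a at 274 ± 7.11, Scn1a at 42.1 ± 5.87 and Scn9a at 24.8 ± 3.63. Each of these neighbours in the order differed by more than its spread, and Scn1a stood far below Scn3a, the alpha subunit typical of the embryo.

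Among the calcium channel alpha1 subunits Cacna1h led at 1164 ± 42.8 per kb. Cacna1b at 801 ± 257 and Cacna1g at 735 ± 50 followed and did not differ beyond their spread, and Cacna1e was the lowest at 127 ± 20.2. The alpha2delta order was Cacna2d3 at 459 ± 19.96, Cacna2d2 at 357 ± 14.9 and Cacna2d1 at 289 ± 3.00 per kb. Of the other beta subunits, Cacnb4 stood at 132 ± 11.3 and Cacnb2 at 49.5 ± 8.28 per kb. The order within every role group was the same when all annotated exons were merged in place of the longest transcript.

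**Figure D4:**
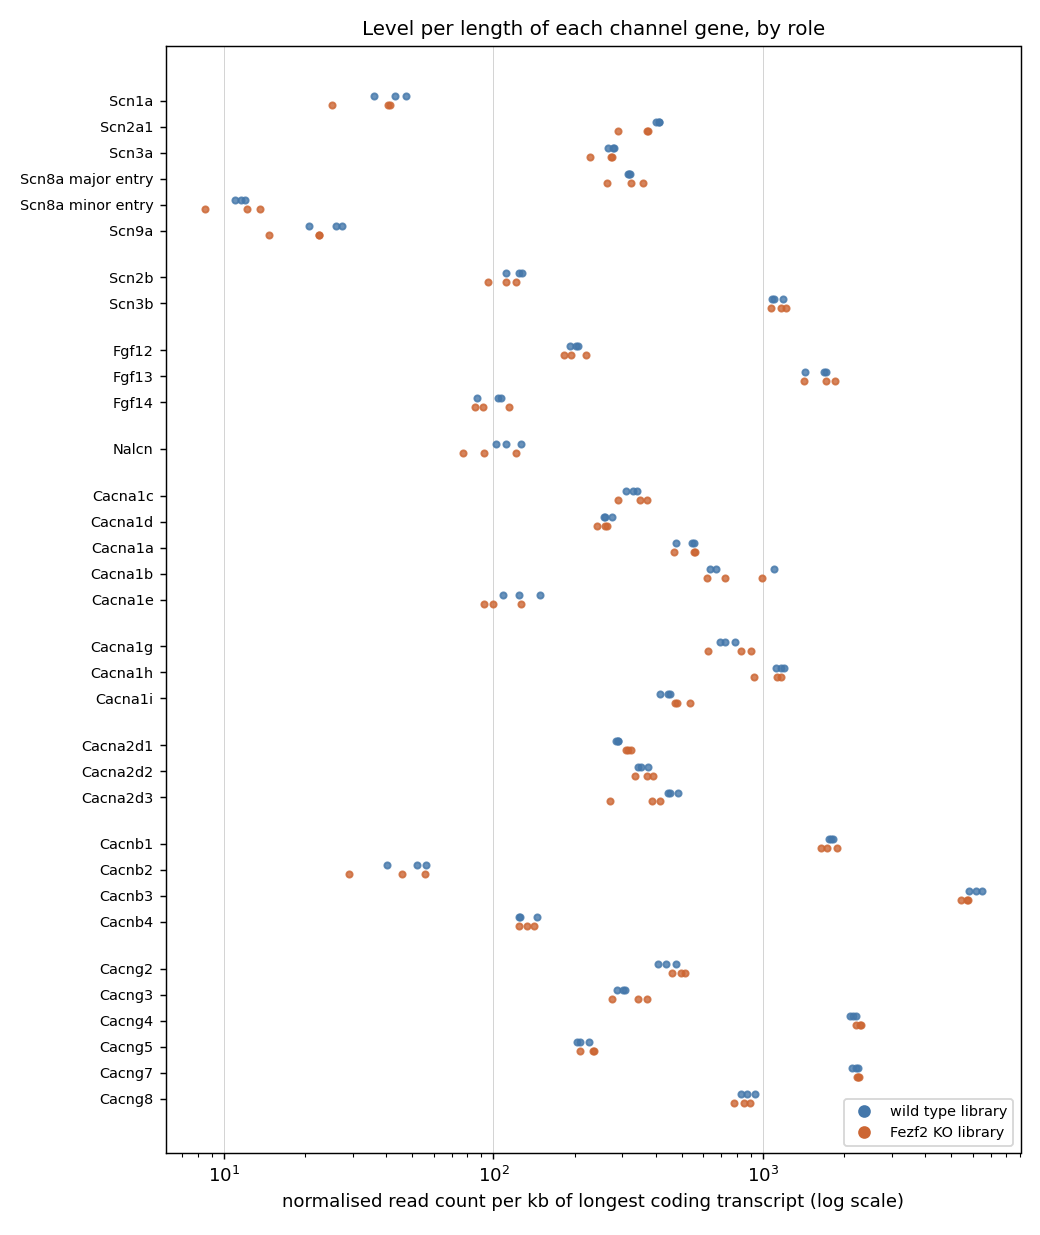
Deposited value per kb of the longest coding transcript (log axis) for each channel gene, by role, in the wild type and Fezf2 KO libraries (n = 3 each). Cacnb3 is the highest at 6158 per kb in wild type and Scn9a the lowest gene at 24.8, and the genotypes lie close together beside that range.

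Of 13 further subunits of the same families outside the list, 13 were in the table and 10 passed the filter, of which 0 were past the limma, edgeR or DESeq2 threshold (0.712%, 0.689% and 2.30% of all entries). At an unadjusted limma p under 0.05 there was 1 of 10, near the 9.03% of all entries, and the median difference was 0.02. The smallest p belonged to Scn10a, a sensory neuron sodium channel, with values of 15.9, 33.2 and 10.3 in the wild type libraries and 1.62, 17.1 and 1.77 in the Fezf2 KO ones, where Fezf2 KO 1 and 3 held 2 reads each. The genotypes overlapped and the limma adjusted p was 0.501.

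Proteins that bind, place or modulate these channels were examined from a list of 29 genes, of which 25 were matched by symbol and 24 tested. Of these, 1 was called by limma (4.17%, against 0.712% of all entries). Rimbp2, an active-zone scaffold that ties RIM proteins to Cav1 and Cav2 channels, had values of 4263, 3995 and 4335 in the wild type and 5228, 5209.5 and 5645 in the Fezf2 KO libraries. Every Fezf2 KO library was above every wild type library in both litters, with means of 4197 ± 179 against 5361 ± 246 (mean ± SD, n = 3 each) and a log2 difference of 0.35 (SE 0.0556). Rimbp2 rose at a limma adjusted p of 0.0350, with 0.0328 by edgeR, 6.51e-06 by DESeq2 and 0.0234 with litter as a block. The call was lost when any 1 library was left out (adjusted p 0.0600 to 0.142, with a difference of 0.37 and 0.0600 without Fezf2 KO 1), in litter m1 alone (0.226) and with the striatal covariate (0.277, difference 0.34).

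An unadjusted p under 0.05 was seen for 4 of the 24 partners (16.7%), against 9.03% of all entries. Besides Rimbp2 they were Stac2, Stac and Rem2, named here after their values were seen. Stac2, an SH3-domain adaptor of Cav1 channels, had values of 3244, 3648 and 3304 in the wild type and 2907, 2270.2 and 2291 in the Fezf2 KO libraries. All Fezf2 KO values were lower, Fezf2 KO 1 the least so, with a difference of -0.46 (SE 0.101) and adjusted p-values of 0.116 by limma and 0.00250 by DESeq2. Without Fezf2 KO 1 the limma adjusted p was 0.0173. Its relative Stac had values of 444, 401 and 404 in the wild type and 499, 797 and 617 in the Fezf2 KO libraries, all higher in Fezf2 KO, with a difference of 0.59 (SE 0.158) and adjusted p-values of 0.218 by limma and 0.0213 by DESeq2, and with the striatal covariate a difference of 1.04 and 0.0275 by limma. Rem2, a small GTPase that inhibits calcium channels, ranged over 813 to 1160.1 in wild type and 1071 to 1296 in Fezf2 KO (difference 0.36, limma adjusted p = 0.480). The leak channel's companions Unc79, Unc80 and Fam155a had differences of 0.04, 0.03 and 0.04, and the initial segment scaffold Ank3 had one of -0.05.

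**Figure D5:**
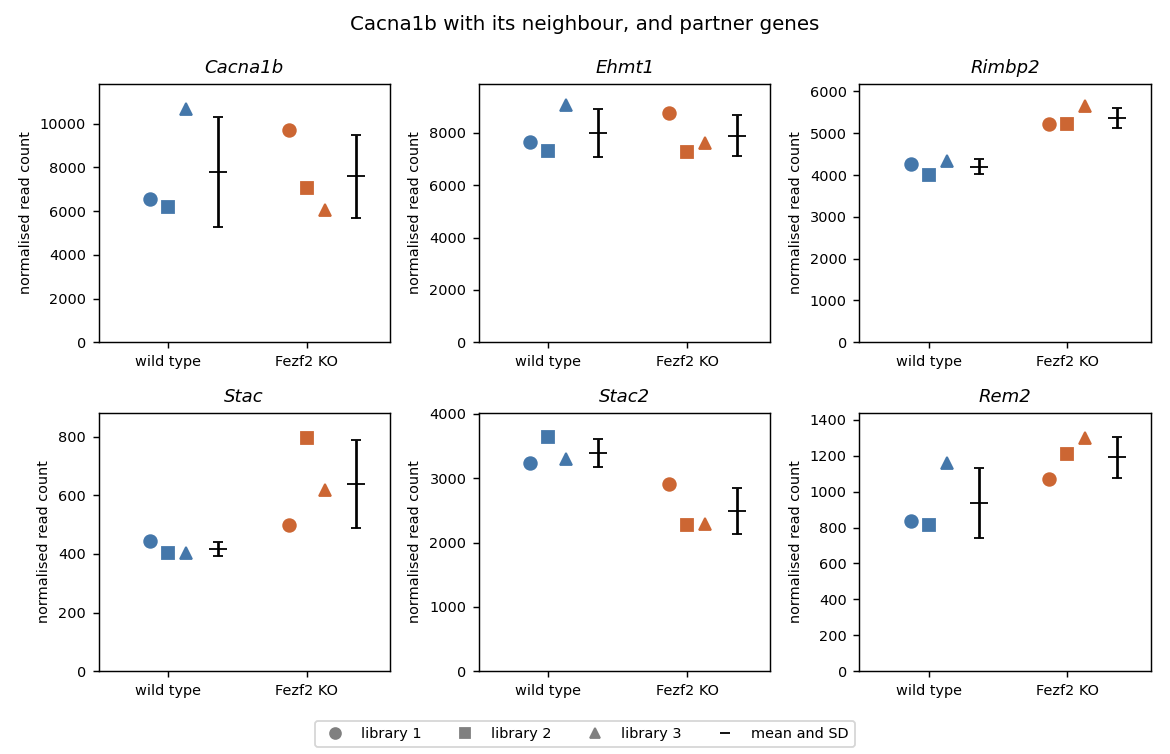
Deposited values (read counts divided by a size factor) of Cacna1b, its neighbour Ehmt1 and the partners Rimbp2, Stac, Stac2 and Rem2. Circle, square and triangle are libraries 1, 2 and 3, with the mean and SD (n = 3). Rimbp2 lies at 3995 to 4335 in wild type and 5209.5 to 5645 in Fezf2 KO, while Cacna1b is high in wild type 3 and Fezf2 KO 1.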

How the data were processed

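Cortical RNA of 3 wild type and 3 Fezf2 KO newborn mice was measured, 1 Illumina TruSeq library per sample, per the labels' protocols. Bowtie, STAR and DESeq, and mm9 as the mouse build, appear in the submitters' processing notes without versions or settings. The deposited signal is a table of read counts per gene entry, scaled as DESeq does by a single size factor for each library. The sources used here do not give the libraries' strand. The smallest step between values gave the value of 1 read, and in every library 100% of values came within 0.006 of a whole multiple.

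Entries reaching a value of 10 in 3 or more libraries (17557 of 23016) were tested with limma 3.58.1 in R 4.3.3 on log2(value + 1), with genotype as the single term, a variance trend and Benjamini-Hochberg adjustment over all entries (threshold 0.05, unadjusted p-values two-sided). The recovered reads were tested with edgeR 4.0.16 and DESeq2 1.42.0. The limma step was also run on simulated counts without litter or dissection effects. Their set changes were larger than any main-fit estimate of the channel entries, so that run does not show how well differences of that size are found. Python 3.11.15 with numpy 2.4.6, pandas 2.3.3 and matplotlib 3.10.9 was used for the rest.

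The channel genes, the lists of further subunits, partners and cell type markers, and the tests were chosen with earlier results of these data known. Values in every library were given for members past the threshold, for the 10 with the smallest p, and for the highest-valued and smallest-p member of each role group. Of the further subunits and partners, those past the threshold were named, or the 2 with the smallest p. One of the further subunits this names is not reported here. Of the partner list, Fam155b, Sptbn4, Catsper1 and Catsper4 were not matched by symbol. Other lists summed by library (thalamic, hippocampal, oligodendrocyte, astrocyte and radial glia, microglia, endothelial and mural, erythroid) had median log2 differences between -0.12 and 0.16. Transcript lengths came from GENCODE for build GRCm38 and gene order from RefSeq for the same build. Coordinates are not given, since the counts rest on mm9. The labels number no replicates, so library numbers follow accession order and pair nothing, but litter is a label. Deviations from the genotype means correlated at -0.117 to 0.262 in 5 pairs of the same litter and at -0.182 to -0.0668 in 4 pairs of different litters, over 14922 entries. Nothing more is known of how independent the samples are. The main limma p-values compare each genotype difference with the spread within genotypes among these 6 libraries, moderated by the trend over all entries. Any litter difference is part of that spread.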

Additional observations from a re-analysis of the deposited data

How the results depend on the processing

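The count of channel gene entries past the threshold was 0 with all 16 alternative settings: a pseudocount of 0.5, no filter on low values, edgeR with 3 normalizations, limma-voom, DESeq2, the striatal genes as a covariate, a replicate block for litter, the libraries of litter m1 alone, and each of the 6 libraries left out. It was also 0 at an adjusted p threshold of 0.1, and the smallest adjusted p in any setting was 0.223, with litter as a replicate block. Of 528 differences of these entries under the alternatives, 479 kept their direction and 49 changed sign without a call. The striatal covariate supplied 15 of these, leaving out Fezf2 KO 1 supplied 7, and no other setting more than 6. Among the 5 entries with the smallest p, 1 changed sign, Cacna2d3 with the striatal covariate. Of the 34 further subunits and partners tested, 1 was called in the main test and with litter as a replicate block (Rimbp2 in both), 0 in litter m1 alone and 3 by DESeq2 (Rimbp2, Stac and Stac2). Over all entries the main test called 0.712% and DESeq2 2.30%. Leaving out a library gave 0 to 1, the 1 being Stac2 without Fezf2 KO 1, a fit that called 108 of all 17557 entries tested. Shares over all entries are not given for the other refits, so their counts cannot be set against a background. The striatal covariate gave 1, Stac in place of Rimbp2. Fits without a library or in litter m1 alone had fewer samples, and the cause of the other changes was not tested.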

Other observations

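The table also held 9 noncoding entries named after channel genes of the list, of which 5 passed the filter and 0 the limma threshold (0.712% of all entries), with 1 at an unadjusted p under 0.05 (9.03% of all entries). The transcript linc-Cacng2-BP had values of 2047, 2041 and 1946 in wild type and 2260, 2400 and 2307 in Fezf2 KO. All Fezf2 KO values were higher, with a log2 difference of 0.21 (SE 0.0552), an unadjusted p of 0.00542 and a limma adjusted p of 0.218. This entry was chosen after its values were seen, and Cacng2 itself had an estimate of 0.16. The transcript linc-Cacng4-BP had values of 237, 265 and 284 in wild type and 407, 273 and 274 in Fezf2 KO, so that Fezf2 KO 1 alone stood apart.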
